A study of Homo sapiens with 12 samples.

Results

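The HOX genes encode homeodomain transcription factors that lie in 4 clusters, HOXA to HOXD, and carry a paralog number from 1 to 13 that follows their order along the DNA. In embryos the low-numbered genes are used towards the head and the high-numbered genes towards the tail, and adult tissues and tumour cell lines usually keep a HOX pattern that reflects where their cells came from. Clusters are kept open or closed over long stretches by Trithorax and Polycomb complexes, and HOX proteins bind DNA together with TALE homeodomain cofactors such as MEIS1. The set described here held every gene whose symbol is HOX, a cluster letter from A to D and a number. There were 39 such genes among the 26485 listed, 11 in HOXA, 10 in HOXB, 9 in HOXC and 9 in HOXD.

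The cells were BT474, an established line from a HER2-positive human breast cancer, wild type in genotype per the labels, and lapatinib inhibits the HER2 and EGFR kinases. mRNA was sequenced from 12 libraries, 3 each of Control cells (day 0), drug-tolerant persisters (DTP, day 9), drug-tolerant expanded persisters (DTEP, month 6) and Resistant cells (month 9), with lapatinib at 1 µM. The Control libraries carry the same lapatinib treatment label as the others and are taken here as untreated from their titles, which give Control and day 0. The 3 libraries of each condition are technical replicates in the study's words, which also mention parallel plates, so n counts libraries, and SDs and p-values measure only the spread between these libraries. Levels are normalised read counts, that is, reads scaled to a common library size as deposited, and 16383363 to 25030482 assigned reads per library made 1 read worth 0.0412 to 0.0576. The clusters lie on chromosome 7 (HOXA), chromosome 17 (HOXB), chromosome 12 (HOXC, 53938831 to 54056030) and chromosome 2 (HOXD, 176087487 to 176190907) of GRCh38.p14. In bulk RNA, fewer cells of a type and less RNA per cell cannot be told apart.

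The libraries of a group were not equally alike. Across genes, DTEP replicate 3 had a Pearson's r of 0.988 to 0.994 with the Resistant libraries and of 0.974 to 0.985 with DTEP replicates 1 and 2. Of the 10 luminal epithelial markers, all had more than 3 reads in at least 1 library of every group. Their sum lay between 11917 and 12710 in Control, between 14402 and 17185 in DTP, between 5605 and 7401 in DTEP, then between 4914 and 6625 in Resistant libraries. ERBB2, the gene of HER2, was at 6356 to 6833 in Control and 1244 to 2103 in DTEP libraries. ESR1, the estrogen receptor gene, was at 149 to 153 in Control and at 0.0553 to 0.211 in Resistant libraries, the lowest of which is 1 read. ERBB2 made up much of the sum, and 3 of the 10 markers were higher and 7 lower by the adjusted p in DTEP against DTP. The higher ones were GATA3 and FOXA1, transcription factors of luminal cells, with means of 454 and 277 in DTP against 1159.5 and 731 in DTEP, and EPCAM, an epithelial adhesion gene, with 143 against 330.1. Whether the late libraries come from the same line as the Control libraries, as labelled, was not tested here. The 7 basal markers summed to at most 10.8 in Control, 5.24 in DTP, 32.7 in DTEP, then 66.9 in Resistant libraries, with KRT5 and KRT14 at 0.0969 or less throughout and TP63, the basal-cell p63 gene, at 16.4 to 65.6 in Resistant libraries. The 9 fibroblast markers summed to between 48.4 and 130 over all libraries, nearly all of it COL1A1, and 7 or 8 of them had at most 3 reads in every library of a group. The 6 immune markers summed to at most 7.21 and the 5 endothelial markers to at most 8.94 in any library.

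Of the 39 HOX genes, 8 (20.5%) had no read in any of the 12 libraries. They included HOXA2, HOXA3, HOXA4, HOXA6, HOXA9, HOXB1 and HOXD11. Over all listed genes, 6104 (23.0%) had no read in any library, so the silent share of the HOX genes lay near the background. At a count of 0 the true level may still be as high as 3 reads, or 0.124 to 0.173 normalised read counts depending on the library, a limit that covers counting error only. With a limit of at most 3 reads in every library, 12 of the 39 (30.8%) were silent, which added HOXA5, HOXB4, HOXD10 and HOXD13. The same limit held 35.6% of all genes.

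The silent genes lay mostly in HOXA, and HOXC held none. HOXA9, a gene with roles in blood and posterior body segments, lies within the span of the RefSeq readthrough gene HOXA10-HOXA9. Its canonical GENCODE transcript shares 0% with other listed genes. Reads that fall on 2 genes are dropped by the default counting. Whether HOXA9 and the readthrough gene share exons in RefSeq was not checked, so the 0 of HOXA9 may be less certain than the others. HOXA3, HOXA4, HOXA6 and HOXD11 share 15.8% to 26.5% of their canonical transcript with other listed genes and are exposed to the same loss. HOXA2 and HOXB1, both hindbrain genes, share 0% of theirs.

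**Figure D1:**
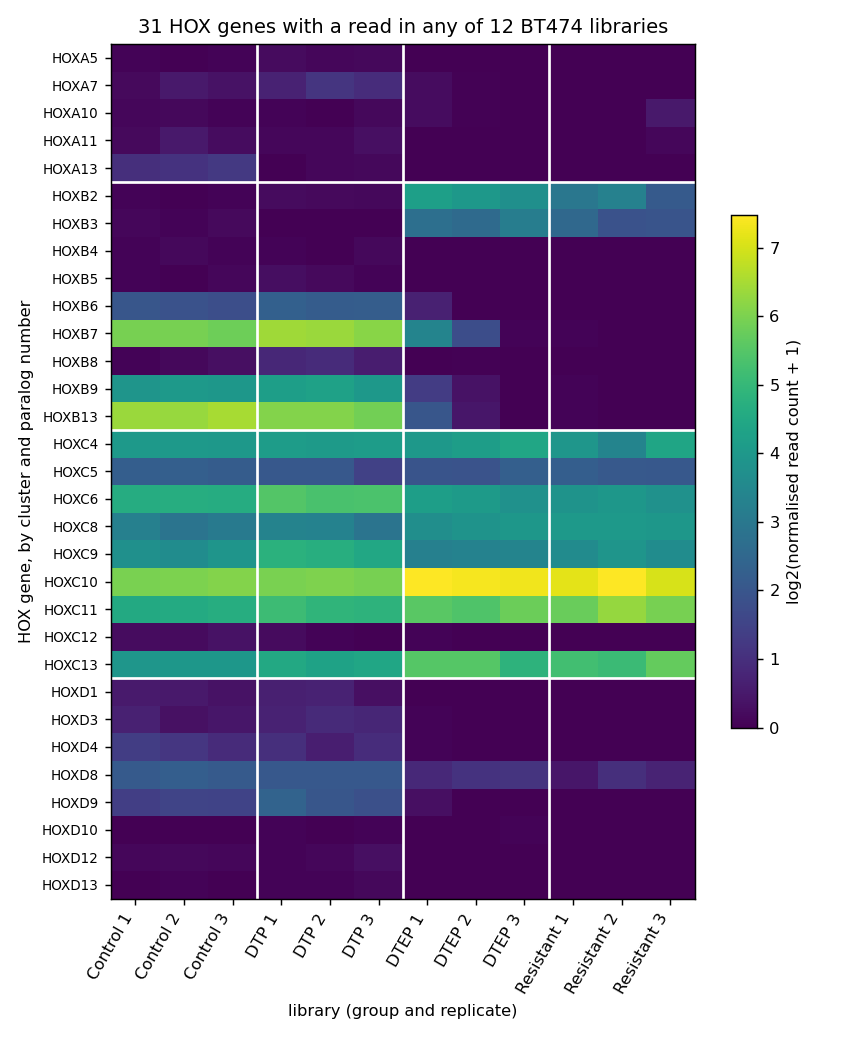
Heat map of the 31 HOX genes with a read in any library (rows, by cluster and paralog number) in the 12 libraries (columns), coloured by log2(normalised read count + 1). The HOXC block without HOXC12 stays coloured in all 12 columns, and in HOXB the colour moves from HOXB6 to HOXB13 in Control and DTP to HOXB2 and HOXB3 in DTEP and Resistant columns.

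Promoter windows of the RefSeq annotation on GRCh38.p14 were found for 20 of the 39 genes, and 3 are shown to set a silent, a retained and a lost member side by side. Each holds the 250 bases before the start, on the strand of the gene. Capitals mark the motifs searched on both strands, which were the GC box GGGCGG, the CCAAT box CCAAT, the TATA box TATAAA, the HOX-PBX site TGATNNAT and the MEIS site TGACAG. HOXB1 (chr17:48531012-48531261, minus strand) had no read, HOXC4 and HOXC5 (chr12:54016638-54016887, plus strand, a start they share in the annotation) had reads in every library, and HOXA13 (chr7:27200092-27200341, minus strand) had more than 4 reads in total only in Control.
HOXB1: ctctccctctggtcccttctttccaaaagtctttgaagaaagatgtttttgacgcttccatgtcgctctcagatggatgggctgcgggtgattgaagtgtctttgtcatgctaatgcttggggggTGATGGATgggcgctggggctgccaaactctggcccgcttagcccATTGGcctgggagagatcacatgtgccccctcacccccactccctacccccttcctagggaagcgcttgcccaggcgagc
HOXC4 and HOXC5: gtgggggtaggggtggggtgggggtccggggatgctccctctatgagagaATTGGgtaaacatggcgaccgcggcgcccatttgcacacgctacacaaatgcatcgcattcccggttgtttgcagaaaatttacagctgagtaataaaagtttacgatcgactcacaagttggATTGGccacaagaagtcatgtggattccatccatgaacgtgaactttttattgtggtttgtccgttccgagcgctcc
HOXA13: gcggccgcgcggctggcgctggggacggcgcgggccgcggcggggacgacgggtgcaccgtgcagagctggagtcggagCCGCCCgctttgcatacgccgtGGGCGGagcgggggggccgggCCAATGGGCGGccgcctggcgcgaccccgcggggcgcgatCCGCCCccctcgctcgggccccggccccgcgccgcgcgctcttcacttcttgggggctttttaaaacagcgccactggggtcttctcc
HOXB1 held a CCAAT box and a HOX-PBX site at 57.2% GC, HOXC4 and HOXC5 held 2 CCAAT boxes at 50.8% GC, and HOXA13 held 4 GC boxes, of which 1 abuts its CCAAT box, at 78% GC. A CCAAT box was found in 65.4% of the 26 windows of HOX genes and in 32.04% of 34943 promoter windows of all genes. For the HOX-PBX site the shares were 11.5% and 6.49%, for the GC box 50% and 42.55%, for the TATA box 19.2% and 10.75%, and for the MEIS site 7.69% and 13.1%. A match is a match of letters only. Most of the HOX windows were of HOXA and HOXD genes, and HOXA3, without a read, had several of them. HOXB1 was the only HOXB gene with a window, and HOXC4 and HOXC5 were the only HOXC genes. The shares therefore leave out the other HOXB and HOXC genes.

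HOXB gave a smaller and HOXC a larger share of HOX expression in DTEP and Resistant libraries than in Control and DTP libraries. Because genes differ in length, clusters and genes were compared per kb of the canonical GENCODE transcript. The sum over all HOX genes was 166 ± 1.92 per kb in Control, 198 ± 13.8 in DTP, 163 ± 11.7 in DTEP, then 151 ± 13.5 in Resistant libraries (mean ± SD, n = 3). HOXC made up 50.3% of it in Control and 53.2% in DTP, and 91.0% in DTEP, then 96.6% in Resistant libraries. HOXB made up 47.1% and 44.3%, and then 8.69% and 3.17%. The HOXC share was 87.6% to 93.3% in the DTEP libraries and 49.8% to 54.5% in the Control and DTP libraries, so these ranges did not overlap.

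Both minor clusters were lower in the late groups. The HOXD sum was 3.78 ± 0.373 per kb in Control, 4.31 ± 0.555 in DTP, 0.474 ± 0.0305 in DTEP, then 0.262 ± 0.118 in Resistant libraries. HOXA summed to 0.520 ± 0.132, 0.624 ± 0.141, 0.0690 ± 0.0896 and 0.0693 ± 0.120 per kb in the same order. With more than 3 reads in every library of a group as the limit, 18 HOX genes were present in Control, 19 in DTP, 11 in DTEP, then 11 in Resistant cells. The 11 were the same genes in DTEP and Resistant cells, namely HOXB2, HOXB3, HOXC4, HOXC5, HOXC6, HOXC8, HOXC9, HOXC10, HOXC11, HOXC13 and HOXD8. Over all genes the share present by this limit was 54.3% in Control and 49.9% in Resistant cells.

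**Figure D2:**
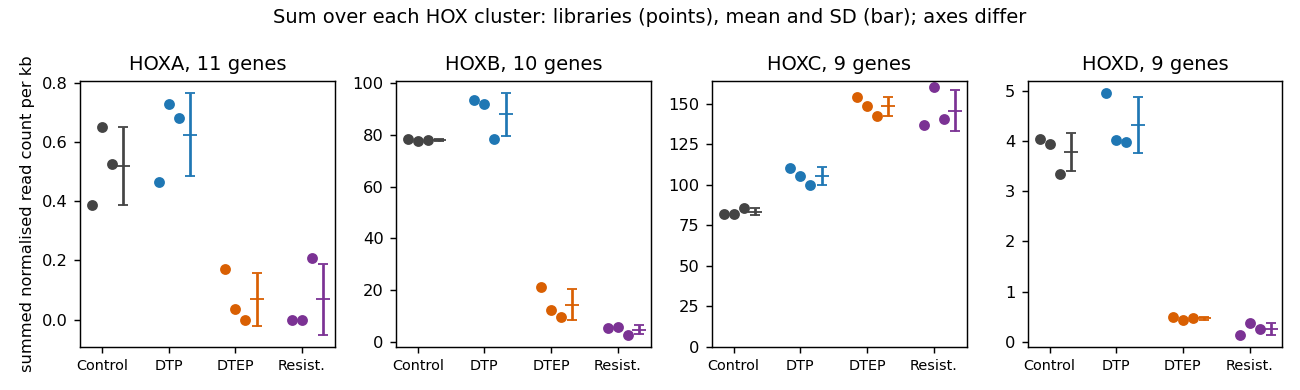
Sum over the genes of each HOX cluster, in normalised read counts per kb of transcript, for each library (points) with the mean and SD of the 3 libraries of a group (bar), and with a different linear axis in each panel. HOXB is at 77.5 to 93.3 in the Control and DTP libraries and at 2.85 to 21.1 in the DTEP and Resistant libraries, while HOXC is at 81.9 to 110 and 137 to 160.

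Per kb, HOXB7, HOXC10 and HOXB13 were the 3 highest HOX genes in Control libraries, at 43.2 ± 1.76, 32.6 ± 1.47 and 27.4 ± 1.94. In DTP libraries the first 3 were HOXB7 (57.4 ± 5.77), HOXC10 (31.5 ± 1.12) and HOXC6 (24.7 ± 1.20). HOXC10 was first in DTEP, at 84.2 ± 4.90, ahead of HOXC13 (16.4 ± 4.10) and HOXC11 (14.6 ± 1.95), which did not differ beyond their spread. In Resistant libraries HOXC10 was at 75.6 ± 12.6, ahead of HOXC11 (19.6 ± 3.93) and HOXC13 (17.02 ± 3.97), whose order was again within the spread. HOXB2 had the sixth highest level in DTEP and 2 reads in Control libraries. These lengths are of 1 transcript a gene, and HOXC4, HOXC5 and HOXC6 share a first exon in RefSeq, so their levels are the least certain of this cluster.

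To ask which HOX genes changed as cells entered tolerance, resumed growth and became resistant, the groups were compared by limma on log2(value + 1). Testing needed a value of 1 or more in 3 or more libraries, which 17 of the 39 HOX genes had, and a call needed both an adjusted p under 0.05 and a log2 change beyond 2 in either direction. Log2 changes below are on this scale, which understates the change of low genes. The other 22 are given by their values.

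In DTP against Control cells, none of the 17 tested genes was called by limma, against 4.92% of all genes (1.01% higher and 3.9% lower), with 5 at an unadjusted p below 0.05, against 59.3% of all genes. edgeR's quasi-likelihood test and DESeq2 on the recovered reads both called HOXA13 and HOXB3 lower, against 5.68% and 5.73% of all genes. The HOXB3 call rests on 6 Control reads, at most 3 in a library, against 0 in DTP. HOXB3 was tested only because of its DTEP and Resistant values. By the adjusted p alone 3 HOX genes were higher and 1 was lower, against 25.2% and 28.8% of all genes.

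The genes that rose by the adjusted p alone were HOXC6, HOXC9 and HOXD9. HOXC6, a thoracic HOX gene also used in the mammary gland, went from 23.9, 24.1 and 23.9 in Control replicates 1, 2 and 3 to 43.1, 39.5 and 39.8 in DTP, with log2 change 0.74 (SE 0.15, limma adjusted p 0.00120). HOXC9, which sets thoracic motor neuron identity, went from 12.6, 11.4 and 13.8 to 26.6, 25.0 and 21.2, a log2 change of 0.89 (SE 0.16, adjusted p 0.000706, limma). In both genes every DTP library lay above every Control library. HOXD9 was at 1.61, 1.90 and 1.82 in Control and at 4.18, 2.96 and 2.53 in DTP (log2 change 0.59, SE 0.15, limma adjusted p 0.00642), and its adjusted p was 0.150 with edgeR and 0.113 with DESeq2.

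HOXA13, a gene of the limb tips and the genital tract, fell. It had 1.01, 1.14 and 1.35 normalised read counts in the Control libraries and 0, 0.0987 and 0.115 in the DTP libraries, which is 72 against 4 reads and 16.4-fold in means. The log2 change was -1.02 (SE 0.10, limma adjusted p 1.01e-05), and no DTEP or Resistant library had a read. HOXA13 passed the filter through the Control group alone.

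Between successive groups, limma at the settings above called HOX genes only from DTP to DTEP. In DTEP against DTP, 2 HOX genes were called higher and 3 lower, against 8.13% and 7.02% of all genes. All 5 were HOXB genes, with HOXB2 and HOXB3 higher and HOXB7, HOXB9 and HOXB13 lower. The calls were not confined to HOXB in every method. edgeR and DESeq2 also called HOXB6 and HOXD9, and edgeR called HOXA13 on 4 DTP reads against 0. The share of all genes called by these methods at this step was not taken. HOXB2 and HOXB3 passed the filter through the DTEP and Resistant libraries alone. HOXB7, HOXB9 and HOXB13, and HOXB6, HOXD8 and HOXD9 below, would not have passed without the Control and DTP libraries. By the adjusted p alone 6 were higher and 8 lower, against 35.7% and 32.6% of all genes. Median-of-ratios scaling moved the median log2 change of all genes in this comparison by -0.10.

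HOXB2, a hindbrain gene at chromosome 17, 48542655 to 48545109 (GRCh38.p14), was nearly absent before month 6. It was at 0.0460, 0 and 0.0466 in Control replicates 1, 2 and 3 and at 0.157, 0.148 and 0.115 in DTP, then at 17.8, 14.8 and 12.2 in DTEP, then at 6.80, 8.74 and 3.34 in Resistant libraries. No DTEP or Resistant library overlapped with an earlier one. Against DTP the log2 change in DTEP was 3.79 (SE 0.25, limma adjusted p 1.18e-07), with 950 against 8 reads. Against Control the DTEP ratio was 485, with a 95% counting interval of 128 to 3841 because Control had 2 reads.

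HOXB3, a neighbouring gene with roles in the hindbrain and in blood cells, followed the same order. Its Control libraries had 0.0920, 0.0544 and 0.140, and its DTP libraries had no read. DTEP replicates 1, 2 and 3 had 5.60, 5.03 and 7.97, and the Resistant libraries had 4.82, 2.71 and 2.86. The log2 change from DTP to DTEP was 2.83 (SE 0.19, limma adjusted p 1.47e-07), and the level was at least 38.9-fold higher against a limit of 3 reads in each DTP library. In the canonical transcript 11.9% of HOXB3 is shared with HOXB-AS1 and HOXB-AS3, and HOXB-AS1 was at 0 to 0.184 in Control and DTP and at 2.02 to 3.01 in DTEP libraries. Reads on a stretch shared by 2 genes are dropped by the default counting.

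Next to them, HOXB4 and HOXB5 stayed at the floor. HOXB4 had 7 reads and HOXB5 had 11 reads in all 12 libraries together, all in Control and DTP. HOXB1, on the other side of HOXB2, had none, so the pair that rose lay between genes with few reads or none.

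HOXB7, HOXB9 and HOXB13 went the other way. HOXB7, which is often highly expressed in breast cancer, was at 60.5, 60.1 and 56.2 in Control and at 84.0, 81.3 and 69.2 in DTP libraries. It was at 9.43, 2.39 and 0.0561 in DTEP replicates 1, 2 and 3, and a single read was found in the Resistant libraries. All DTEP libraries lay below all earlier ones, although they differed widely among themselves, and the log2 change was -4.56 (SE 0.57, limma adjusted p 1.98e-05).

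HOXB9, a paralog with a role in mammary gland development, had 13.98, 15.3 and 14.4 in Control and 17.2, 18.5 and 14.9 in DTP libraries. The DTEP libraries had 1.53, 0.288 and 0, and the Resistant libraries had 1 read in all. The log2 change from DTP to DTEP was -3.59 (SE 0.27, limma adjusted p 3.34e-07), and the means differed by 27.8-fold, or by 117-fold without DTEP replicate 1.

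HOXB13, the last gene of the cluster and best known from the prostate and the hindgut, was at 81.5, 78.4 and 89.8 in Control and at 67.3, 67.7 and 58.7 in DTP libraries. It was at 2.97, 0.371 and 0 in DTEP and had 1 read among the Resistant libraries. The log2 change was -5.22 (SE 0.38, limma adjusted p 2.50e-07) from DTP to DTEP and -6.37 (SE 0.38, limma adjusted p 4.26e-08) from Control to Resistant. With 5141 Control reads against 1, that last ratio has a 95% counting interval starting at 934.

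The smaller HOXB genes had the same direction. HOXB6 was at 2.99, 2.66 and 2.47 in Control, at 3.91, 3.55 and 3.57 in DTP, at 0.622, 0 and 0 in DTEP, then without a read in Resistant libraries. Its log2 change from DTP to DTEP was -1.99 (SE 0.17, limma adjusted p 1.08e-06), just short of the threshold on the change, and 29.4% of its canonical transcript is shared with HOXB-AS3 and HOXB3. HOXB8, not tested, was at 0.518 to 0.888 in DTP libraries, at 0.0460 to 0.233 in Control and had 1 read later.

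**Figure D3:**
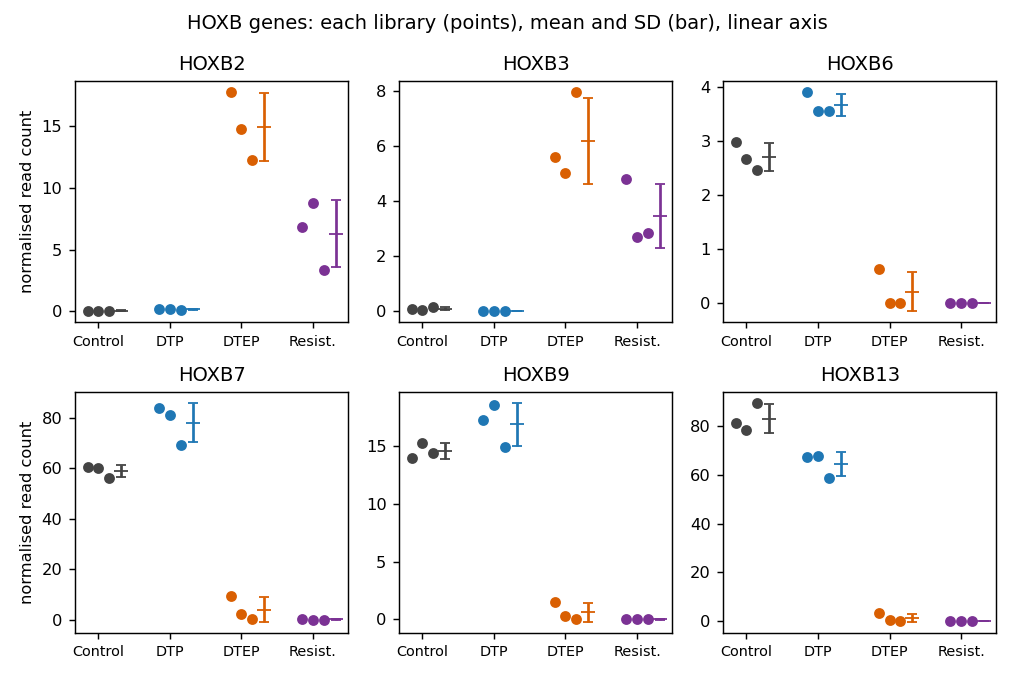
Normalised read counts of 6 HOXB genes on linear axes that differ between panels, for each library (points) with the mean and SD of the 3 libraries of a group (bar, which can reach below 0). HOXB2 and HOXB3 are high in the 6 DTEP and Resistant libraries, and HOXB6, HOXB7, HOXB9 and HOXB13 are high in the 6 Control and DTP libraries.

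The DTEP libraries held these genes in unequal amounts. As a percentage of the Control mean, HOXB7 was at 16.0, 4.05 and 0.0952 in DTEP replicates 1, 2 and 3, HOXB9 at 10.5, 1.98 and 0, and HOXB13 at 3.57, 0.446 and 0. Replicate 1 was the highest and replicate 3 the lowest in each. Among genes chosen after their values were seen, ESR1 stood at 11.1, 4.57 and 0.559 percent, ALDH1A1, an enzyme of retinoic acid synthesis, at 17.2, 5.83 and 1.06, and SKAP2, an adaptor gene beside HOXA, at 9.31, 5.83 and 1.66 in the same libraries. CHN1, a gene beside HOXD, stood at 4.99, 0.678 and 0. VWF, an endothelial marker, did not keep this order, at 4.73, 1.02 and 2.08. HOXD8, also lower in the late groups, ran the other way, at 23.6, 33.4 and 34.1. The part of these genes in the HOXB values was not tested. Without any one DTEP library the 5 HOXB genes were still called, but the folds in means from DTP depended on replicate 1. Without it HOXB7 differed by 63.9-fold in place of 19.8-fold and HOXB13 by 348-fold in place of 58.0-fold, and without replicate 3 by 13.2-fold and 38.7-fold.

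The 200 kb HOXB cluster lies at chromosome 17, 48528526 to 48728750. Its tested neighbours within 1 Mb, a window chosen after the values were seen, differed by side. On the HOXB13 side 11 of 14 were lower and 2 higher by the adjusted p in DTEP against DTP, where 32.6% of all genes were lower and 35.7% higher, with a median log2 change of -1.14, against 0.08 over all genes. On the HOXB1 side 9 of 17 were higher and 1 was lower, with a median of 0.50.

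From a list of genes flanking HOXB, of which 9 were tested and 2 were called, both lower, against 7.02% of all genes, ATP5G1, an ATP synthase subunit gene, went from a mean of 357 in DTP to 92.9 in DTEP (log2 change -2.16, SE 0.39, limma adjusted p 0.000339). SNF8, of the ESCRT sorting machinery, went from 521 to 124 (log2 change -2.17, SE 0.27, limma adjusted p 1.85e-05). They lie 164 and 201 kb beyond the HOXB13 end.

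**Figure D4:**
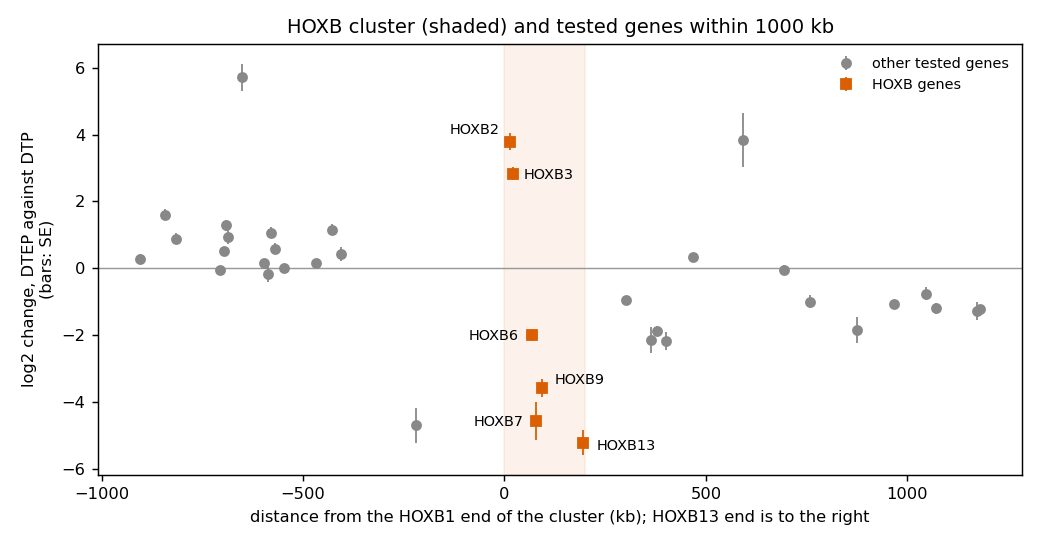
Log2 change in DTEP against DTP with its SE (vertical axis) for tested genes by distance in kb from the HOXB1 end of the HOXB cluster (horizontal axis, cluster shaded, 1000 kb to each side). HOXB2 and HOXB3 lie above 0 at the left of the cluster and HOXB6, HOXB7, HOXB9 and HOXB13 below 0, with the median of the grey neighbours at 0.50 on the left and -1.14 on the right.

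HOXC was the cluster that all 4 groups kept. Of its 9 genes, 8 had more than 3 reads in every library, and HOXC12, with 18 reads in all, was at 0.280 or less. No HOXC gene was called in any of the 5 comparisons. By the adjusted p alone 6 of the 8 tested passed in DTEP against DTP, where 35.7% of all genes were higher and 32.6% lower. HOXC8, HOXC10, HOXC11 and HOXC13 were higher and HOXC6 and HOXC9 lower. In edgeR and DESeq2 no HOXC gene passed both criteria either.

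HOXC10, a lumbar HOX gene that specifies hindlimb motor neurons, had the largest rise of the cluster from DTP to DTEP on the log2 scale. It was at 62.0, 63.3 and 67.6 in Control, at 61.4, 64.7 and 60.4 in DTP, at 176, 166 and 157 in DTEP, then at 143, 177 and 129 in Resistant libraries. The late libraries lay above all earlier ones, with a log2 change of 1.41 from DTP to DTEP (SE 0.13, limma adjusted p 1.53e-06), 2.68-fold in means.

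HOXC11 and HOXC13, further towards the end of the cluster, rose as well. HOXC12, which lies between them, did not, with 13 reads in Control, 4 in DTP and 1 in DTEP. HOXC11, a posterior gene of the hindlimb field, was at 22.4, 22.9 and 24.3 in Control, 33.7, 28.7 and 27.4 in DTP, 46.4, 41.8 and 54.3 in DTEP, then 53.4, 78.3 and 60.3 in Resistant libraries. HOXC13, a regulator of hair and nail keratins, was at 14.3, 14.7 and 14.6 in Control, 22.0, 18.8 and 20.4 in DTP, 44.1, 44.4 and 27.5 in DTEP, then 36.0, 33.5 and 50.8 in Resistant libraries. From Control to Resistant the log2 changes were 1.41 (SE 0.17, limma adjusted p 1.35e-05) for HOXC11 and 1.38 (SE 0.21, limma adjusted p 0.000102) for HOXC13, and neither set of late libraries overlapped with the Control or DTP libraries.

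HOXC8, a gene of the lower neck and thorax, was at 6.36 to 9.24 in Control and DTP libraries and at 12.01 to 15.7 in DTEP and Resistant libraries. From DTP to DTEP its log2 change was 0.64 (SE 0.18, limma adjusted p 0.00679). HOXC6 and HOXC9, which had risen in DTP, then fell, HOXC6 to 17.3, 15.7 and 12.9 (log2 change -1.37, SE 0.15, limma adjusted p 5.33e-06) and HOXC9 to 8.52, 8.94 and 9.26 (log2 change -1.35, SE 0.16, limma adjusted p 1.41e-05) in DTEP.

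In Resistant cells HOXC6 was at 12.9 to 14.4, below every Control library (log2 change against Control -0.78, SE 0.15, limma adjusted p 0.000557). HOXC9 was at 11.1 to 14.002, a range that overlaps with the 11.4 to 13.8 of Control. HOXC4 had group means of 14.6 to 17.5 and HOXC5 of 2.71 to 3.67, and neither passed the adjusted p in any comparison.

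**Figure D5:**
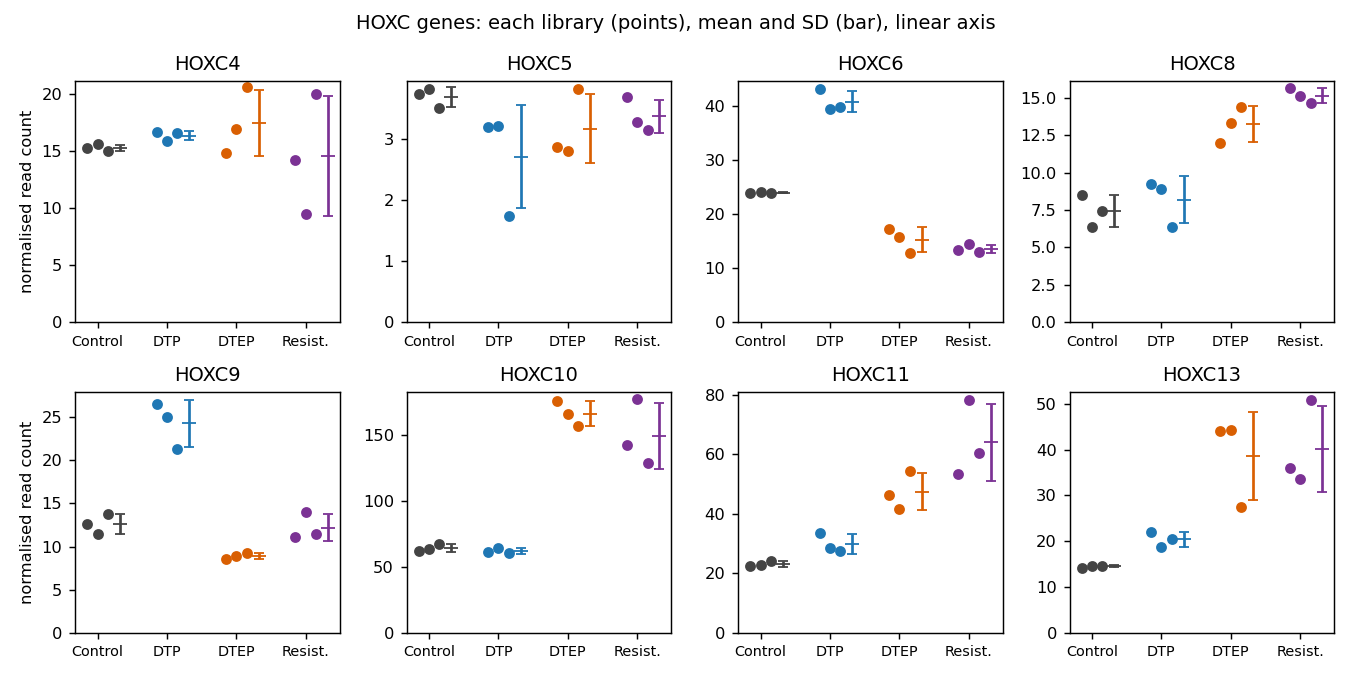
Normalised read counts of 8 HOXC genes on linear axes that differ between panels and start at 0, for each library (points) with the mean and SD of the 3 libraries of a group (bar). HOXC8, HOXC10, HOXC11 and HOXC13 are highest in the DTEP and Resistant libraries, HOXC6 and HOXC9 in the DTP libraries, and HOXC4 and HOXC5 passed the adjusted p in no comparison.

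HOXA and HOXD held only low levels. HOXD8, the highest HOXD gene per kb in Control, was at 3.36, 3.70 and 3.31 in Control, 3.18, 3.16 and 3.17 in DTP, 0.813, 1.15 and 1.18 in DTEP, then 0.380, 0.996 and 0.678 in Resistant libraries. It fell from DTP to DTEP by 1.03 on the log2 scale (SE 0.15, limma adjusted p 8.17e-05) and was the HOXD gene still present in every late library. Of its canonical transcript, 24.5% is shared with HOXD-AS2.

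HOXD9 fell from its DTP values to 0.239, 0 and 0 in DTEP (log2 change -1.96, SE 0.15, limma adjusted p 4.27e-07), and no Resistant library had a read, at least 12.2-fold below Control. HOXD4, a hindbrain and neck gene, was not tested and had 0.885 to 1.56 in Control, 0.543 to 0.992 in DTP and 1 read in the DTEP and Resistant libraries together. HOXD1 and HOXD3 were at 0.230 to 0.839 in Control and DTP libraries, with 1 read of HOXD3 and none of HOXD1 later. HOXD12 had 13 reads, all in Control and DTP.

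In HOXA, HOXA7 was the only gene besides HOXA13 with a value over 0.5 in a library. It lay between 0.138 and 0.435 in Control, between 0.626 and 1.23 in DTP and was at most 0.191 in DTEP libraries, but 74.8% of its canonical transcript is shared with HOXA-AS3. HOXA10 and HOXA11, which pattern the uterus, had 22 and 25 reads over all libraries. A level of 0.436 for HOXA10 in Resistant replicate 3, which is 9 reads, made up most of the HOXA signal of that group, whose other libraries had none.

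Read by paralog number, the gene with the highest level came from another cluster in the late groups than in Control at numbers 13 and 3. At number 3 it was HOXD3 in Control, at only 0.169 ± 0.0682 per kb, and HOXB3 in DTEP, at 1.88 ± 0.473. At the other numbers with a read in the late groups, 9 and 7 among them, the leading cluster was the same as in Control. For number 13, HOXB13 stood at 27.4 ± 1.94 per kb in Control, above HOXC13 at 6.16 ± 0.0971, whereas in DTEP HOXC13 stood at 16.4 ± 4.10 and HOXB13 at 0.366 ± 0.532. For number 9, HOXC9 was already the highest in Control, at 8.55 ± 0.805 per kb beside HOXB9 at 5.63 ± 0.255. In DTEP HOXC9 stood nearly alone at 6.04 ± 0.254. HOXB7 had no HOXC partner, since HOXC has no number 7. In DTEP HOXB7 stood at 2.90 ± 3.58 per kb and HOXA7 at 0.0385 ± 0.04996.

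Numbers 2 and 3 came to be read in HOXB alone. HOXA2, HOXA3 and HOXD3 had together 1 read in the DTEP and Resistant libraries. The sum of numbers 1 to 3 over all clusters was 0.424 ± 0.104 per kb in Control, 0.640 ± 0.138 in DTP, 10.8 ± 1.36 in DTEP, then 4.79 ± 1.70 in Resistant libraries. Numbers 9 to 13 summed to 88.8 ± 4.29, 95.5 ± 5.91, 122 ± 7.83 and 121 ± 14.5 per kb in the same order, so the head end of HOXB and the tail end of HOXC were both higher in the late groups.

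Between DTEP and Resistant cells, no HOX gene was called by limma, against 0.681% of all genes (0.225% higher and 0.457% lower), with 5 of the 17 at an unadjusted p below 0.05, against 34.9% of all genes. edgeR called 3, HOXB7, HOXB9 and HOXB13, against 3.7% of all genes, and DESeq2 called these and HOXB6, against 4.52%, all lower in Resistant cells. Without DTEP replicate 3, limma called HOXB7 as well.

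By the adjusted p alone 2 genes were lower and none higher, against 4.31% and 3.04% of all genes. HOXB2 had a change of -1.19 on the log2 scale (SE 0.25, limma adjusted p 0.0214), and its adjusted p was 0.301 when only the 6 libraries compared were fitted, 0.0747 without DTEP replicate 1 and 0.0879 without DTEP replicate 2. HOXB3 had a change of -0.70 on the log2 scale (SE 0.19, limma adjusted p 0.0480) and missed the threshold under 19 of its 21 alternatives.

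Against Control, which both comparisons share, DTEP had 2 HOX genes called higher and 3 lower, with 4.43% and 6.20% of all genes, and Resistant had 1 higher and 3 lower, with 5.03% and 7.80%. By the adjusted p alone DTEP had 6 higher and 9 lower, with 29.5% and 28.7% of all genes, and Resistant 6 higher and 8 lower, with 30.2% and 32.6%. HOXB2, HOXB7, HOXB9 and HOXB13 were called in both. HOXB2 had log2 changes of 3.94 (SE 0.25) in DTEP and 2.75 (SE 0.25) in Resistant, HOXB7 of -4.16 and -5.88 (SE 0.57 each) and HOXB9 of -3.39 and -3.94 (SE 0.27 each). HOXB3 had 2.70 and 1.996 (SE 0.19 each), the latter just under the threshold on the change.

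Some TALE cofactors of HOX proteins rose at the same step. Of 8 tested, 3 were called in DTEP against DTP, all higher. Of all genes 15.2% were called in either direction and 8.13% higher. The list median was 0.67 on the log2 scale. By the adjusted p alone 4 were higher and 1 was lower, against 35.7% and 32.6% of all genes. The lower gene was MEIS3, named after its values were seen, with means of 1.15 in DTP and 0.246 in DTEP. MEIS1, the partner of many HOX-PBX complexes, was at 3.08, 3.70 and 3.07 in Control, 2.14, 2.12 and 2.48 in DTP, 16.7, 17.8 and 24.9 in DTEP, then 21.3, 18.4 and 19.9 in Resistant libraries (DTEP against DTP log2 change 2.66, SE 0.18, limma adjusted p 1.43e-07). MEIS2 rose from a mean of 6.73 to 36.2 and PKNOX2 from 0.357 to 6.21. PKNOX2 passed the filter through the DTEP and Resistant libraries alone, and MEIS3 through the Control and DTP libraries alone.

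Among 26 tested Polycomb genes, which keep HOX clusters silent, 10 were higher and 6 lower by the adjusted p in DTEP against DTP, against 35.7% and 32.6% of all genes. PCGF2, a subunit long known as a HOX repressor, fell from 657 ± 77.1 to 142 ± 19.7 (log2 change -2.21, SE 0.16, limma adjusted p 2.49e-07). PCGF5 fell from 28.9 to 4.62 and PHF19 rose from 16.8 to 89.4. EZH2, the H3K27 methyltransferase, had means of 150 in Control, 51.6 in DTP, 71.3 in DTEP, then 44.7 in Resistant libraries, and its fall from Control to DTP passed the adjusted p (log2 change -1.52, SE 0.21, limma adjusted p 0.000100).

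Of the 14 Trithorax and H3K27 demethylase genes, which keep HOX clusters active, 6 were higher and 2 lower by the adjusted p at the same step, against 35.7% and 32.6% of all genes. KMT2A, the activator of HOX genes best known from leukaemia, had means of 199, 64.6, 152 and 294 in the 4 groups in order, with 76.6, 116 and 262 in DTEP replicates 1, 2 and 3. Its fall from Control to DTP (log2 change -1.63, SE 0.33, limma adjusted p 0.00158) and its rise from DTP to DTEP (log2 change 1.05, SE 0.33, limma adjusted p 0.0145) passed the adjusted p.

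Genes upstream of HOX in embryos, the CDX factors and the retinoic acid pathway, gave 8 tested genes of 15, of which 1 was higher and 6 lower by the adjusted p in DTEP against DTP, with 35.7% and 32.6% of all genes. CRABP2, which carries retinoic acid to its receptors, rose from 25.7 ± 2.58 to 601 ± 233 (log2 change 4.42, SE 0.23, limma adjusted p 2.49e-08). RARA, a retinoic acid receptor, fell from 119 to 16.98, and ALDH1A1 from 17.7 to 1.70. ALDH1A1 would not have passed the filter without the Control and DTP libraries.

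Of 32 other homeobox genes 16 were tested, with 6 higher and 8 lower by the adjusted p, beside 35.7% and 32.6% of all genes. SIX2, a kidney progenitor gene, rose from 0.543 to 0.576 in DTP libraries to 206, 210 and 114 in DTEP replicates 1, 2 and 3 (log2 change 6.77, SE 0.25, limma adjusted p 1.40e-09). It would not have passed the filter without the DTEP and Resistant libraries. DLX3, a gene of skin and placenta, fell from 224 to 16.7, and IRX4 from 30.8 to 6.50.

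Noncoding genes of the HOX clusters were mostly low, with 6 of the 23 in the table tested. HOTAIR, an antisense RNA of the HOXC cluster chosen here after its values were seen, lay between 24.9 and 26.6 in Control, between 37.5 and 45.0 in DTP, between 16.4 and 37.6 in DTEP, then between 32.2 and 58.3 in Resistant libraries. Its change from DTP to DTEP passed the adjusted p (log2 change -0.91, SE 0.30, limma adjusted p 0.0159), with DTEP replicate 3 inside the DTP range. Its strand is opposite to HOXC11 and HOXC12, but its canonical exons and theirs are not shared.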

How the data were processed

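Per the study's methods, stranded mRNA libraries were sequenced, aligned to hg38 and counted over RefSeq genes with Rsubread at default settings, which ignore strand and drop reads on 2 genes. The signal values the authors deposited are read counts scaled per library, equal to CPM with edgeR's TMM factors. All 199680 values above 0 were whole multiples of 1 read (largest distance 1.2e-09), and the reads were recovered. Rows without a gene symbol were 1016 of the 26485.

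limma 3.58.1 (R 4.3.3, trend) was fitted on log2(value + 1) over all 12 libraries, with Benjamini-Hochberg adjustment over 13794 genes in each of 5 comparisons. edgeR 4.0.16 and DESeq2 1.42.0 were run on the recovered reads as alternatives. Folds in means without each DTEP library were added after seeing the data. On simulated data for DTEP against DTP (13428 genes, 200 changed 8-fold), limma recovered 189, edgeR 197 and DESeq2 198, with 0, 3 and 4 false calls. The changed genes were drawn from those with a mean above 5, so recovery of lower genes such as HOXB3 was not tested. The HOX genes are described by cluster and role. Genes of other lists are named where they passed both criteria, at most 3 with the largest changes per list and comparison, plus EZH2, KMT2A and MEIS1. Results for some genes are not reported here. The members and lists were chosen with earlier results of these data known. Positions come from RefSeq, and transcript lengths and overlaps from GENCODE.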

Additional observations from a re-analysis of the deposited data

How the results depend on the processing

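The counts of HOX genes called changed with the settings, and no direction reversed. The share of all genes called was not taken under most of these settings. The counts therefore show how the HOX calls moved and not whether they exceed that share. In DTP against Control (0 called) a pseudocount of 0.1 gave 1, edgeR 2, DESeq2 2, a log2 limit of 1 gave 1 and the adjusted p alone 4. In DTEP against DTP (5) edgeR gave 8, a log2 limit of 1 gave 11, the adjusted p alone 14, and leaving out a library 5 to 7, while a filter on a mean of at least 5 gave 4, since HOXB3 was not tested. In Resistant against DTEP (0) a pseudocount of 0.1 gave 1 (HOXB7), edgeR 3, DESeq2 4, a log2 limit of 1 gave 1 (HOXB2), the adjusted p alone 2, and leaving out a library 0 to 1. In DTEP against Control (5) a pseudocount of 0.1, edgeR and DESeq2 each gave 8, a log2 limit of 1 gave 11, the adjusted p alone 15, a mean of at least 5 gave 4 without HOXB3, and leaving out a library 5. In Resistant against Control (4) a pseudocount of 0.1 gave 9 and of 0.5 gave 7, edgeR and DESeq2 9, a log2 limit of 1 gave 12, the adjusted p alone 14, and leaving out a library 4 to 5. The 8 genes without a read became 12 with at most 3 reads allowed. The cause was not tested.

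Replicate numbers did not pair the samples: over 18 same-numbered pairs the correlation of deviations was -0.44 to 0.36, with 2 over 0.1 and 2 libraries best matched by their own number, and the replicate block gave 0, 5, 0, 5 and 4 calls in the 5 comparisons in the order above. HOXC9 in DTEP against Control had a limma adjusted p of 0.0293 and missed the threshold under 5 of 22 alternatives (0.0511 with the block), and HOXB3 in Resistant against DTEP had 0.0591 with the block.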
